A study of Homo sapiens with 2 samples.

Results

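The genes described here encode the nucleoporins, importins and exportins, together with the GTPase RAN. They were chosen by name: every gene of the array called NUP, IPO or TNPO with a number, XPO with a number or letter, or KPNA with a number other than KPNA3, as well as KPNB1, CSE1L, RANBP2 and RAN. This rule used no measured value, but it was set with earlier results of these data known. It found 47 of the 43317 gene names on the array, with 73 probes, and 46 of the 47 genes had a probe well above background on both arrays. The exception, NUP210L, was not well above background on either array and has no value here.

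RNA came from Ca9-22 cells, an established line of oral squamous cell carcinoma (OSCC). One culture carried a lentivirus that expresses the long noncoding RNA DLEU1, the other an equivalent control vector, and both were kept in blasticidin for 2 weeks. Total RNA of each culture was read in Cy3 on 1 Agilent expression array. With 1 array per group there was no replicate and hence no test, and the number of arrays sets how precise any value can be. The comparison asks which transport transcripts differed in level between the cultures.

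The nuclear pore complex is the gate between nucleus and cytoplasm. Stacked rings of scaffold nucleoporins hold a central channel lined by nucleoporins rich in phenylalanine and glycine (FG) repeats, and filaments and a basket extend from its faces. Importins carry cargo with a nuclear localisation signal inward, exportins carry cargo outward, and RAN in its GTP-bound form releases import cargo and loads export cargo in the nucleus. In dividing cells the complex comes apart at mitosis and is rebuilt afterwards.

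A level is the log2 intensity minus the 75th percentile of the array, so 0 is the 75th percentile. It depends on the probe, so the level of one gene is not compared with that of another. A difference is the level with the DLEU1 vector minus that with the control vector on the log2 scale, and a gene was counted as higher or lower at 2-fold or more. Where a gene had several probes detected on both arrays, the brightest gives its value. Probe positions are those of the files, on hg19. The SD of the difference of a single spot was 0.0797 over 282 probes with replicated spots, which covers the array only and not the spread between cultures.

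Of 58201 probes, 47.6% (control) and 48.1% (DLEU1) were well above background, and 20246 gene names were detected on both. The brightest DLEU1 probe was 6.67-fold higher with the DLEU1 vector, and the other DLEU1 probes 1.81-fold and 1.46-fold. All 8 squamous epithelial markers were detected on both arrays. Of 6 fibroblast markers, 2 were detected on the control array and 3 on the DLEU1 array, while COL1A2, COL3A1 and DCN were not. Of 5 leukocyte markers 4 were detected, CD3E not, and of 4 endothelial markers 2 were, PECAM1 and KDR not. The markers detected on both arrays differed by -0.33 to 3.99 (fibroblast), -1.60 to 0.45 (leukocyte) and -0.59 to 3.70 (endothelium), and their part in the values below was not tested. A strip of the DLEU1 vector array stood apart, with 42.8% of its 276 lit spots at least 2-fold lower against 12.8% outside it. Lit spots are those well above background on the control array. The limits of the strip were set from the shares of low spots by column and row, so this contrast follows in part from that choice. Among the probes of these transport genes the strip held only the main XPO6 probe and 1 of 4 NUP133 probes.

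The probes below are among the 11 main probes whose genomic span (hg19) exceeds their 60 bases by more than 2. Each therefore crosses an exon junction and reads spliced RNA. They are shown because they stand behind values given below for the Y complex, the inner ring, the importins and the exportins, with NUP214 as a gene that was at a similar level on both arrays. All are written 5′ to 3′, and no base is marked because junction positions were not located. Whether the other probes lie in an exon, an intron or a UTR was not annotated here.
NUP37, chr12:102470624-102471157, minus strand: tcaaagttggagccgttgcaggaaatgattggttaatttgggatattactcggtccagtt
NUP85, chr17:73230872-73231242, plus strand: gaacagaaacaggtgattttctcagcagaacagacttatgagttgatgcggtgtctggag
NUP93, chr16:56868309-56868659, plus strand: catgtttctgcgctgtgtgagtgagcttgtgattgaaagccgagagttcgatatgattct
IPO4, chr14:24649913-24650726, minus strand: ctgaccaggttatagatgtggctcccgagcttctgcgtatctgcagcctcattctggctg
XPOT, chr12:64828653-64829429, plus strand: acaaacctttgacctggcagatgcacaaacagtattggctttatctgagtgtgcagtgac
NUP214, chr9:134098303-134103591, plus strand: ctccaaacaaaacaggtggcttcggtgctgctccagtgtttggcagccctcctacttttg

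Of the 46 detected transport genes, 20 were at least 2-fold lower with the DLEU1 vector (43.5%), against 9.78% of all genes detected on both arrays. Only KPNA7 was at least 2-fold higher (2.17%), against 9.18% of all genes. Counted by sign alone, 40 were below 0 and 6 above, whereas 54.2% of all genes were below 0. The median difference of the 46 was -0.85, with quartiles of -1.33 and -0.19, beside a median of -0.07 and quartiles of -0.52 and 0.41 over all genes. Among genes with a mean level of at least 0, 18 of 41 transport genes were at least 2-fold lower, against 11% of 12093 genes. In a bulk sample, fewer cells of one kind and less RNA per cell cannot be told apart. The distribution of differences shows the transport genes as a shoulder to the left of the bulk of genes, and none of them lay below -2.16.

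**Figure D1:**
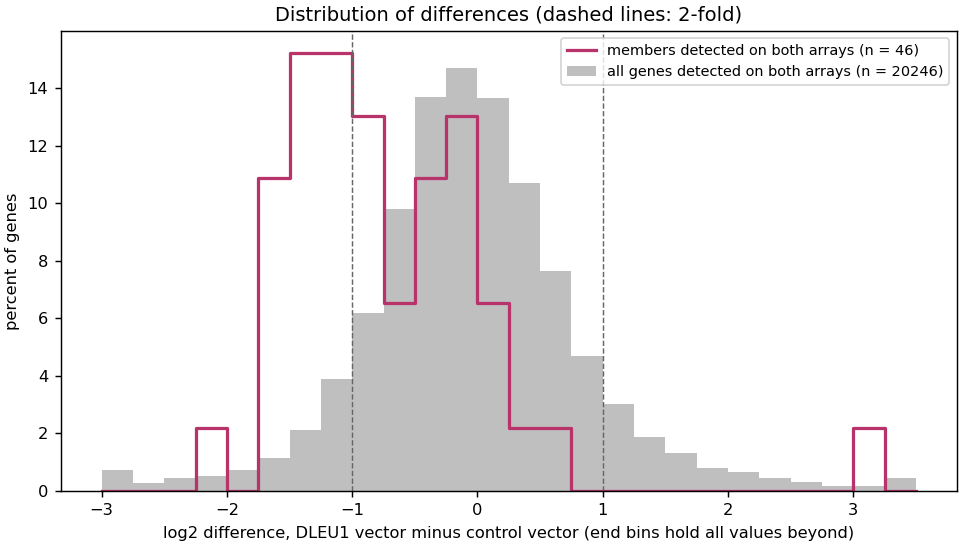
Distribution of the log2 difference, DLEU1 vector minus control vector, in bins of equal width, as percent of the 46 detected transport genes (line) and of all 20246 detected genes (grey). Dashed lines mark 2-fold. The transport genes lie mostly below 0, around a median of -0.85, while all genes centre near -0.07, and KPNA7 stands alone on the right.

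The families differed in their medians. The 21 detected nucleoporins had a median difference of -1.06, with 11 at least 2-fold lower and none (0) higher. All 7 exportins were below 0, with a median of -1.39 and 5 at least 2-fold lower. That median is the value of XPO6, whose main probe lies in the strip, and without the strip the median was -1.11 and 4 of the 7 reached 2-fold. The 17 importins had a median of -0.25, with 4 at least 2-fold lower and 1 higher, and they ranged from -2.16 for KPNA2 to 3.07 for KPNA7. Whether these medians would differ between repeated cultures was not tested, as there was 1 array per group. The plot of levels on both arrays gives every detected gene by role.

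**Figure D2:**
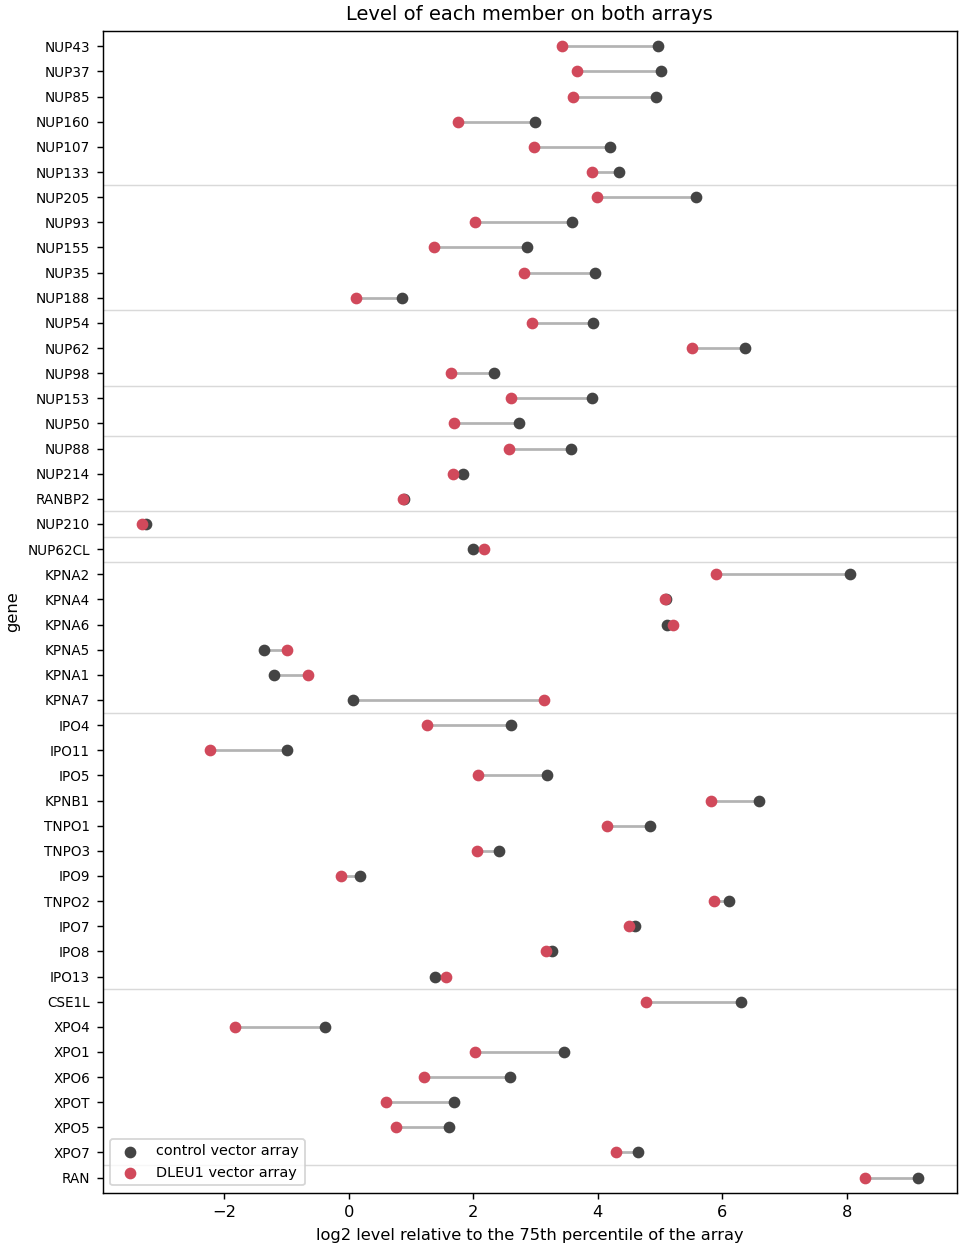
Log2 level of each detected transport gene relative to the 75th percentile of the array (x axis), with the control vector (dark) and with the DLEU1 vector (red). Genes are grouped by role, and levels are to be read within a gene. In the first 2 blocks, the Y complex and the inner ring, every red point lies to the left of the dark one, and KPNA7 has the longest line to the right.

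The Y complex is the scaffold of the outer rings of the pore. All 6 of its genes taken by the name rule were below 0, and 5 were lower by 2-fold or more, with a median of -1.28. SEH1L (-0.85), AHCTF1 (-0.89) and SEC13 (-0.45), which also belong to this complex, fell outside the rule and did not reach 2-fold. NUP43, a peripheral subunit, was at 4.96 in the control culture and 3.42 in the DLEU1 culture, a difference of -1.54 (probe at chr6:150045580-150045639). Its other detected probe gave -0.29, and this span of 1.25 between probes was the widest of any transport gene. NUP37, a small peripheral subunit, was at 5.01 and 3.67, a difference of -1.34, by the junction probe printed above. The core subunit NUP85 was at 4.93 and 3.59, also a difference of -1.34 by a junction probe. NUP160, another core subunit, was at 2.98 and 1.75, a difference of -1.23 (chr11:47800286-47800345). NUP107, after which the complex is also named, was at 4.19 and 2.97, a difference of -1.22 (chr12:69136376-69136435). NUP133, which lies at the stem of the Y, was the exception among the 6. Its main probe was at 4.33 and 3.90, a difference of -0.43 (chr1:229577164-229577223), and its 4 probes ran from -1.03 to -0.43, the lowest of them in the strip.

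The inner ring ties the scaffold to the nuclear membrane and to the central channel. All 5 of its genes were below 0, with a median of -1.51, and 4 passed 2-fold. NUP205, a large scaffold subunit, was at 5.57 in the control culture and 3.98 in the DLEU1 culture, a difference of -1.59 or 3.0-fold (chr7:135333302-135333361), the lowest value of a nucleoporin in the main setting. With loess and with quantile normalization NUP93 (-1.42 and -1.43) and NUP155 (-1.4 and -1.41) lay below it (-1.34 and -1.37). NUP93, which links the subunits of this ring, was at 3.59 and 2.02, a difference of -1.56 by the junction probe above. NUP155, which contacts the membrane, was at 2.87 and 1.36, a difference of -1.51 (chr5:37294495-37294554). NUP35, another membrane contact, was at 3.96 and 2.81, a difference of -1.15 (chr2:184026315-184026374), and its other detected probe gave -1.33. NUP188, the relative of NUP205, was at 0.85 and 0.11, a difference of -0.75 (chr9:131767789-131767962). Together the Y complex and inner ring genes taken by the name rule had 9 of 11 lower by 2-fold or more, with a median of -1.34.

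The 3 central channel genes taken by the name rule had a median of -0.85. Among them, NUP54 was at 3.93 and 2.95, a difference of -0.98 (chr4:77036056-77036115). NUP62, its partner in the FG-repeat channel, was at 6.36 and 5.52, a difference of -0.85. NUP98, an FG nucleoporin found on both faces of the pore, was at 2.33 and 1.65, a difference of -0.68 (chr11:3696747-3696806), and its other probe gave -0.98. None of these 3 reached 2-fold (0 of 3). NUPL1, which also encodes a channel protein, fell outside the rule and did pass 2-fold. It was at 2.52 and 1.32, a difference of -1.20.

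Both nuclear basket genes taken by the name rule were at least 2-fold lower. TPR, the main protein of the basket, fell outside the rule and was at 3.49 and 3.27, a difference of -0.22. NUP153, which anchors the basket, was at 3.90 and 2.60, a difference of -1.30 (chr6:17615406-17615465). NUP50, which helps importin alpha release its cargo, was at 2.74 and 1.68, a difference of -1.06 (chr22:45583785-45583843), and its other probe gave -0.79. NUP50 and XPOT (-1.09) were the genes just inside the 2-fold threshold, while NUP88 (-0.99) and NUP54 (-0.98) lay just outside it.

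On the cytoplasmic side no gene reached 2-fold (0 of 3). NUP88 was at 3.57 and 2.58, a difference of -0.99 (chr17:5290120-5290336), but its binding partner NUP214 was at 1.84 and 1.67, a difference of -0.17 by the junction probe above. RANBP2, the main protein of the cytoplasmic filaments and a SUMO ligase, was at 0.88 and 0.87, a difference of -0.01 (chr2:109402125-109402184). Its other probe gave -0.35, and because the genome holds near-identical RGPD copies of this gene, both probes may also read those. The membrane nucleoporin NUP210 was at -3.25 and -3.33, a difference of -0.07 (chr3:13358456-13358515). NUP62CL, a gene resembling the end of NUP62, was the only nucleoporin name above 0, at 1.99 and 2.17, a difference of 0.18 (chrX:106366944-106367003).

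The importin alpha proteins bind the classical localisation signal and join cargo to importin beta. The 6 importin alpha genes taken by the name rule, which left out KPNA3, lay on both sides of 0. KPNA2 was at 8.05 in the control culture and 5.89 in the DLEU1 culture, a difference of -2.16 or 4.46-fold lower (chr17:66042658-66042717), the lowest of any transport gene, and 1.58% of all detected genes were lower still. KPNA7, known mainly from oocytes and early embryos, was at 0.06 and 3.14, a difference of 3.07 or 8.43-fold higher (chr7:98771213-98771272). Its other probe gave 2.73, and 0.533% of all detected genes exceeded its difference. The remaining 4 genes were within 2-fold. KPNA1 was at -1.21 and -0.65, a difference of 0.56. KPNA5 was at -1.36 and -1.0, a difference of 0.36, and KPNA6 was at 5.11 and 5.21, a difference of 0.10. KPNA4 was at 5.10 and 5.08, a difference of -0.01 (chr3:160218043-160218102), but its other probe (chr3:160213016-160213075) gave 0.71, and it was the only transport gene whose probes went opposite ways.

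The importin beta family and the transportins carry cargo through the channel themselves. Of 11 genes, 10 were below 0 and 3 were lower by 2-fold or more, with a median of -0.36. IPO4, a carrier of histones and ribosomal proteins, was at 2.60 and 1.25, a difference of -1.35 by the junction probe above. IPO11 was at -1.0 and -2.23, a difference of -1.23 (chr5:61897649-61923013). IPO5, also a carrier of ribosomal proteins and histones, was at 3.18 and 2.07, a difference of -1.11 (chr13:98676214-98676273), and its other probe gave -1.10. KPNB1, the importin beta that partners importin alpha, was at 6.58 and 5.81, a difference of -0.77. TNPO1, which imports several RNA-binding proteins, was at 4.84 and 4.15, a difference of -0.69.

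The other carriers of this family lay closer to 0. TNPO3, the importer of SR splicing factors, was at 2.41 and 2.05, a difference of -0.36. IPO9 was at 0.18 and -0.12, a difference of -0.30, and TNPO2, the close relative of TNPO1, was at 6.11 and 5.86, a difference of -0.25. The related carriers IPO7 and IPO8 each differed by -0.10, IPO7 from 4.60 to 4.5 and IPO8 from 3.26 to 3.16. The other probes of IPO7 gave -0.35 and -0.47. IPO13, which works in both directions, was at 1.39 and 1.56, a difference of 0.18 (chr1:44432620-44432679).

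Of the exportins, 5 of 7 were at least 2-fold lower, XPO6 among them only with the strip included. CSE1L, which returns importin alpha to the cytoplasm, was at 6.30 in the control culture and 4.77 in the DLEU1 culture, a difference of -1.54 or 2.90-fold (chr20:47712950-47713009), and its other probe gave -1.67. XPO4, an exporter of the translation factor eIF5A, was at -0.38 and -1.83, a difference of -1.45 (chr13:21353517-21353576). XPO1, the main exporter of proteins with a leucine-rich export signal, was at 3.46 and 2.02, a difference of -1.44 or 2.71-fold (chr2:61705836-61705895). XPO6, the actin exporter, was at 2.59 and 1.20, a difference of -1.39 (chr16:28113258-28115917). This probe lies in the strip, and without the strip XPO6 is read by its other probe, which gave -0.88 under the full array and -0.89 when the strip was left out, short of 2-fold. XPOT, the tRNA exporter, was at 1.70 and 0.60, a difference of -1.09 by the junction probe above. XPO5, the exporter of microRNA precursors, was at 1.60 and 0.75, a difference of -0.85, with its 3 probes from -1.30 to -0.85. XPO7 was at 4.64 and 4.29, a difference of -0.35, the smallest of the family. RAN itself was at 9.14 and 8.28, a difference of -0.85 (chr12:131360738-131360797), and its other probe gave -1.05.

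**Figure D3:**
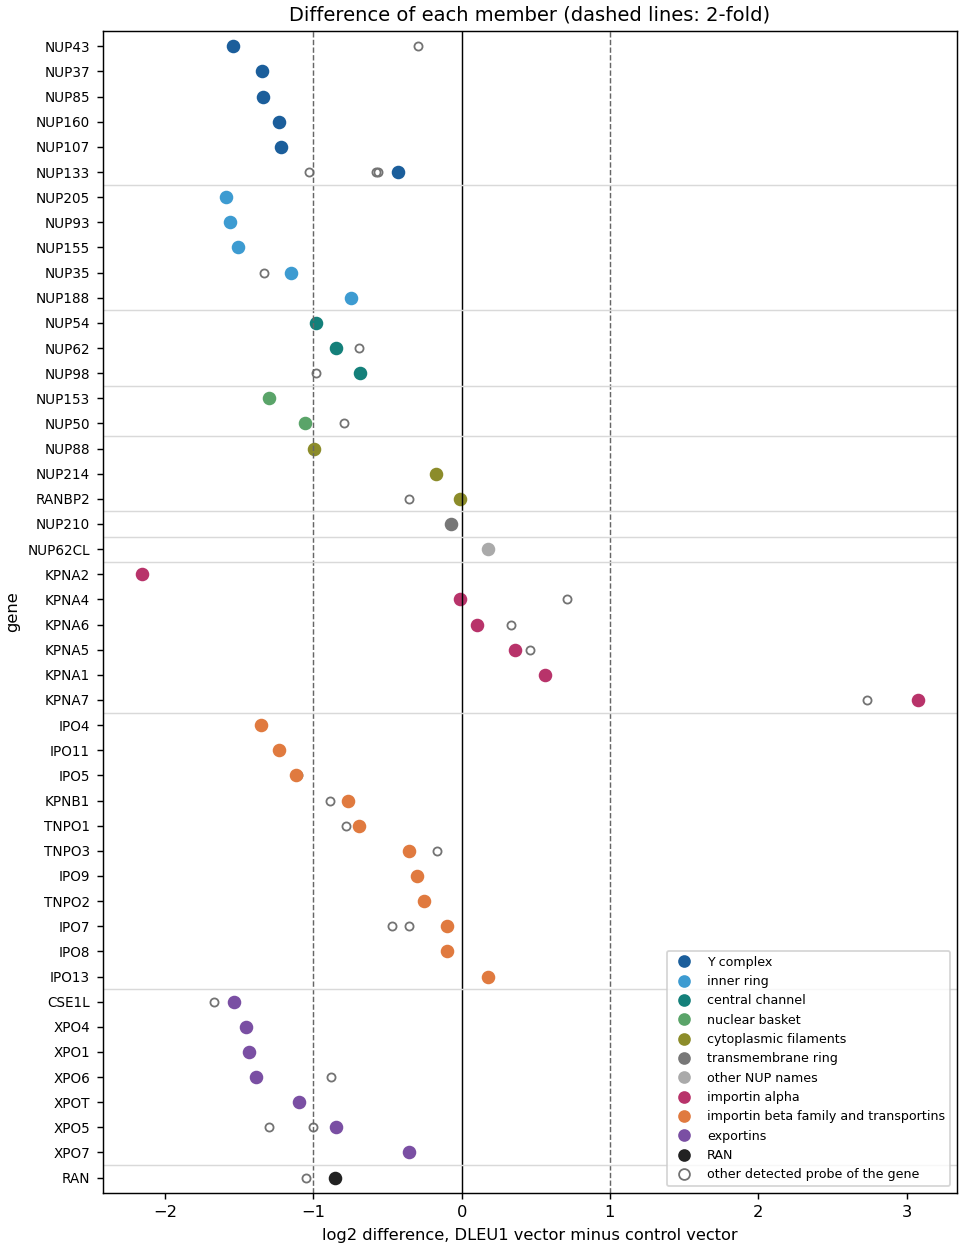
Log2 difference of each detected transport gene, DLEU1 vector minus control vector (x axis), grouped by role in colour. Filled points are the probe that gives the gene's value, open points are its other detected probes, and dashed lines mark 2-fold. The plotted genes of the Y complex, inner ring, basket and exportins lie mostly beyond the left dashed line. The importin alpha genes spread from -2.16 to 3.07, and the open points of KPNA4 and NUP43 lie farthest from their filled ones.

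Genes with several detected probes give a check of each value within these arrays. Of 20 such transport genes, 19 had all probes on 1 side of 0, with KPNA4 as the exception. In 14 of the 20 all probes fell on the same side of 2-fold, while NUP133, NUP43, NUP50, RAN, XPO5 and XPO6 had probes on both sides. The median span between the probes of a gene was 0.25. The other 26 genes were read by a single detected probe. Over 4674 genes of the array, the pooled SD of the difference between probes of a gene was 0.47 and the median SD 0.23. NUP50, XPOT, NUP88 and NUP54 lay closer to the 2-fold threshold than either SD. Among the other genes counted as lower, IPO5, NUP35, NUP107, IPO11 and NUP160 also lay within the median SD of it. Every gene counted as lower lay within the pooled SD of it, except KPNA2, NUP205, NUP93, NUP43, CSE1L and NUP155.

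Other genes of nuclear transport were read from lists that the name rule did not take in. All 11 pore genes with other names were below 0, with a median of -0.52. Of these, 2 (18.2%) were at least 2-fold lower, against 9.78% of all genes. NDC1, a membrane protein of the pore, was the lowest at -1.96 (4.16 in the control culture and 2.19 in the DLEU1 culture). NUPL1, which encodes the third channel protein beside NUP62 and NUP54, was at -1.20, and TPR, the main protein of the basket, was the highest at -0.22. Of the genes of the RAN cycle and other receptors and adaptors, 10 of 12 were detected and all 10 were below 0. Their median was -0.76, and 3 (30%) were lower by 2-fold or more. These 3 were regulators of RAN: the RAN-binding protein RANBP1 (7.16 and 4.98, a difference of -2.18), the nucleotide exchange factor RCC1 (2.88 and 0.86, -2.02) and the GTPase activator RANGAP1 (7.25 and 6.17, -1.08). SNUPN, the adaptor for spliceosomal snRNP import, was the highest at -0.34.

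Genes of mRNA export and of the nuclear envelope and lamina were measured beside them. Of 24 mRNA export genes, 22 were below 0, with a median of -0.48. Only 3 (12.5%) were lower by 2-fold or more, near the 9.78% of all genes. They ran from the helicase DDX39A (6.93 and 4.58, a difference of -2.35) to ZC3H11A (0.47), and the export adaptor ALYREF was at -1.56. Of 17 genes of the nuclear envelope and lamina, 4 (23.5%) were lower by 2-fold or more, with a median of -0.30. LMNB1, a B-type lamin, was the lowest at -2.30 (3.40 and 1.10), and SUN2, which ties the envelope to the cytoskeleton, was the highest at 0.70. LMNA, the A-type lamin gene, differed by -0.30.

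Markers of cell division and of keratinocyte differentiation also differed between the arrays. In the DLEU1 culture each of 24 proliferation genes was lower by 2-fold or more, against 9.78% of all genes. They ran from -3.46 to -1.92, with a median of -2.74. One of them, RRM1 (-2.01), was read by a probe in the strip, and without the strip 23 genes remained in this list, with a median of -2.77. Of 16 differentiation genes, 11 were detected on both arrays and 10 of these (90.9%) were at least 2-fold higher, against 9.18% of all genes. The 11 had a median of 5.10 between extremes of 0.53 and 9.88. The others, KRT1, LOR, S100A8, S100A9 and CDSN, were detected on the DLEU1 array only. The median of each transport family lay between these lists, and so did the median of all genes (-0.07). Only KPNA2 among the 46 detected transport genes was lower than the highest proliferation gene, MCM6 (-1.92). In the other lists NDC1 (-1.96), RANBP1 (-2.18), RCC1 (-2.02), DDX39A (-2.35), LMNB1 (-2.30) and TMPO (-2.07) were lower than MCM6 too. The part of division and differentiation in the values of the transport genes was not tested.

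**Figure D4:**
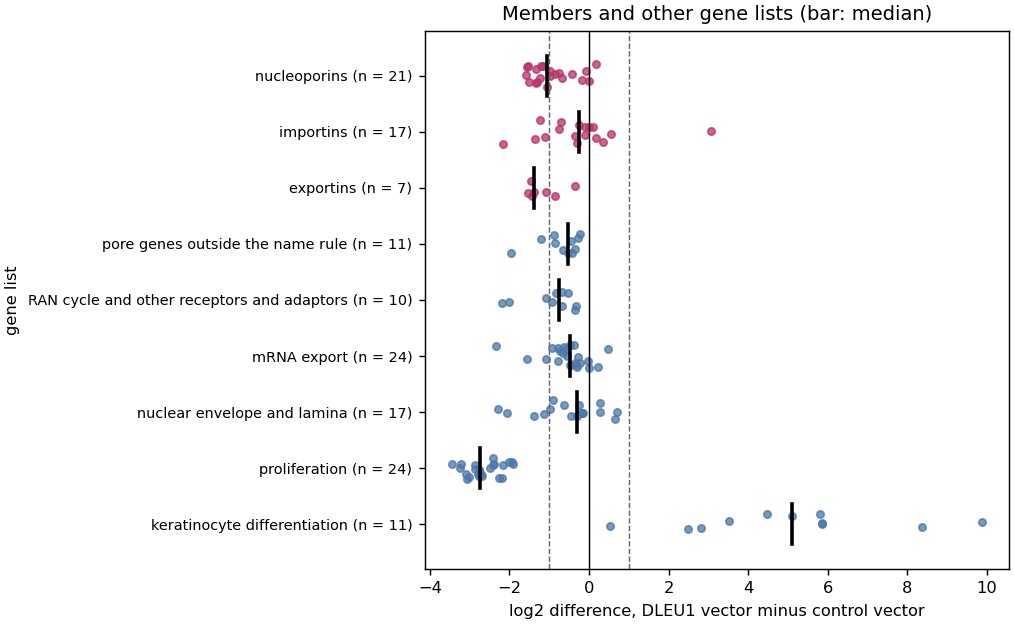
Log2 difference, DLEU1 vector minus control vector (x axis), of each detected gene in the transport families (pink) and in 6 other lists (blue), with n in brackets and a bar at each median. Vertical spread within a list is for legibility, and dashed lines mark 2-fold. Family medians of -1.06, -0.25 and -1.39 lie between the proliferation list at -2.74 and the differentiation list at 5.10, as does the median of all genes (-0.07).

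Promoters were read from RefSeq on GRCh38.p14, as 250 bases before to 50 bases after each start. A total of 41 of the 47 genes matched, with 53 promoters, and KPNA4, KPNA5, KPNA7, KPNB1, NUP43 and XPO7 did not. The median GC content of these promoters was 62.7%, against 58.7% over all 35116 promoters. On both strands, CCAAT, the letters bound by the factor NF-Y, stood in 26 of the 53 (49.1%), against 34.6% of all promoters. TTTGAA, the letters of the cell cycle homology region, stood in 14 (26.4%), against 15.2%. TTTGGCGC or TTTCGCGC, letters bound by E2F factors, stood in 3 (5.66%), against 1.15%, and the palindromic NRF1 motif also in 3 (5.66%), against 1.24%. Matches of different motifs may share end bases. The promoters from different starts of NUP98, XPO4, NUP160 and NUP210L overlap, so shared letters could count more than once. NUP210L, which was not detected, is among the 53. By gene, where any start could count, CCAAT was found for 12 of 19 matched genes at least 2-fold lower and for 8 of the 21 other detected genes. TTTGAA was found for 9 of the 19 and for 3 of the 21. By promoter, CCAAT stood in 14 of the 26 of lower genes and in 10 of the 25 of the others. For TTTGAA the counts were 10 of 26 and 4 of 25. The by-gene share over all genes was not computed. Such a match describes the letters only, and binding was not measured.

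The 250 bases before the start are printed for 3 genes at least 2-fold lower, KPNA2, CSE1L and XPO1, and for KPNA6, which was within 2-fold, to show that CCAAT letters stood in both kinds of promoter. Capitals mark CCAAT or its reverse complement ATTGG. Of the 2 starts of XPO1, the one with more CCAAT letters was picked, and the other held none (0). Each runs 5′ to 3′ on the strand of its gene.
KPNA2, chr17:68035485-68035734, plus strand: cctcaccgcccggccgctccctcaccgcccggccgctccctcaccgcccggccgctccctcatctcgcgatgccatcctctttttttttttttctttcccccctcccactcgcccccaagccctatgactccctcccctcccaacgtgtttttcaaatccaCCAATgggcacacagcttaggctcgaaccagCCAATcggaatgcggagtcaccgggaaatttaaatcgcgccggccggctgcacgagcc
CSE1L, chr20:49046062-49046311, plus strand: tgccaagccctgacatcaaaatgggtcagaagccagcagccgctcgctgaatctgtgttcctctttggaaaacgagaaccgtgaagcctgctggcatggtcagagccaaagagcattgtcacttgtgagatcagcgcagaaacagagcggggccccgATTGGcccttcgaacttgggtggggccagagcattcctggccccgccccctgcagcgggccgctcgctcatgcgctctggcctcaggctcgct
XPO1, chr2:61538357-61538606, minus strand: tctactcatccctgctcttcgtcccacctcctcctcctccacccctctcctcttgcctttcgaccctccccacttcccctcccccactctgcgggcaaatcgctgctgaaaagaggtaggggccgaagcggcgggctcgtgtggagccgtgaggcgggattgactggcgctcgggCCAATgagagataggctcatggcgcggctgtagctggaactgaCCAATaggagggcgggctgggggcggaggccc
KPNA6, chr1:32107806-32108055, plus strand: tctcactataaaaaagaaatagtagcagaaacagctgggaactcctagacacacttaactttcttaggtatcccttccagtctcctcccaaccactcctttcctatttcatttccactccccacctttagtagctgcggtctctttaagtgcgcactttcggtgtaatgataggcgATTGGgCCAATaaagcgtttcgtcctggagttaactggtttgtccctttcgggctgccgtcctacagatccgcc
KPNA2 and XPO1 each held CCAAT letters at 2 places and so did KPNA6, whereas CSE1L held them at 1. The differences of these genes were -2.16, -1.44, 0.10 and -1.54 in the order KPNA2, XPO1, KPNA6 and CSE1L.

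The direction of most values stayed the same under other processing. Of the 20 genes at least 2-fold lower, all 20 stayed below 0 under the 12 alternatives that can move a value, and 12 stayed past 2-fold under every one that gave them a value. The exportin and nucleoporin medians stayed at or below -0.94 in each setting of the plot of family medians, while the importin median moved to 0.0088 with loess. Scaling by the spike-in probes moved the median of all genes by -0.40, so values under that scaling are to be read relative to this shift. KPNA7 stayed higher throughout, at 2.68 to 3.19.

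**Figure D5:**
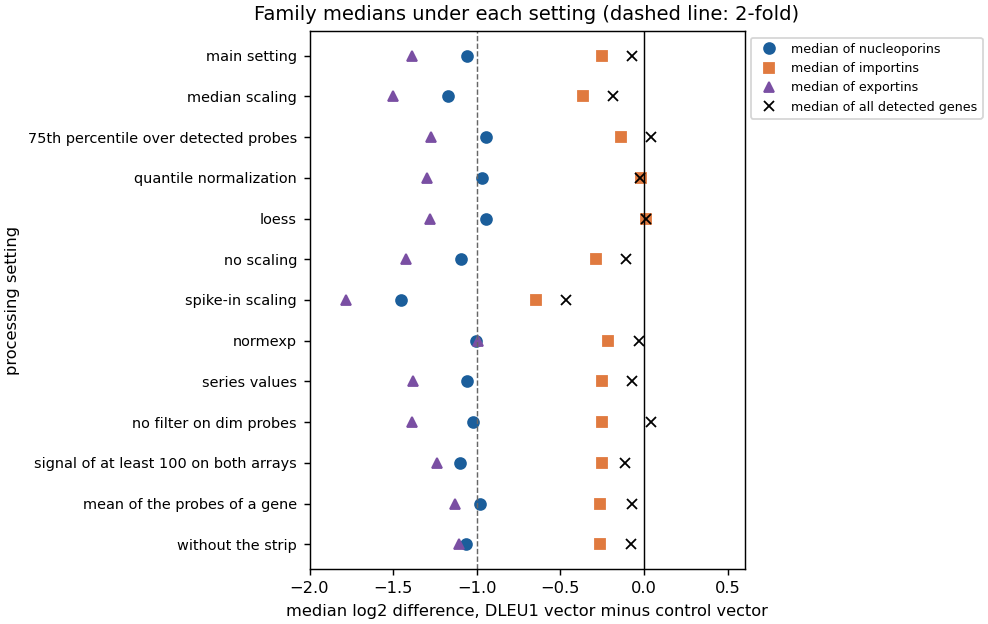
Median log2 difference, DLEU1 vector minus control vector (x axis), of nucleoporins (circles), importins (squares), exportins (triangles) and all detected genes (crosses) under the main setting and 12 alternatives. The dashed line marks 2-fold. Exportins run from -1.78 to -0.99 and nucleoporins from -1.45 to -0.94, while the importin squares stay near the crosses.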

How the data were processed

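The genes, lists and roles were chosen with earlier results of these data known, so no list counts as independent evidence. Agilent Feature Extraction 10.7 made the deposited intensity values, with local background subtracted per the file headers. The deposited spot flags, a measure of another kind, marked spots well above background or as outliers. The authors used GeneSpring, and the methods named no fold threshold. The authors' series values held the same intensity, rounded (within 0.497%).

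Here the signal was log2-transformed, control and outlier spots were dropped, repeated spots were averaged per probe, and each array's 75th percentile (7.92 for control, 7.88 for DLEU1) was taken off. No spot (0) was saturated. A gene took its brightest probe detected on both arrays. Every gene chosen is named, with probe positions for those past 2-fold, the extremes of each role and those with opposed probes, except XPO7. Alternatives changed the scaling, background correction, filter, threshold, probe rule and strip (columns 37 to 40, rows 1 to 144). Calculations were tested on simulated data. R 4.3.3, limma 3.58.1 and Python 3.11.15 were used. Protein repeat counts were not run.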

Additional observations from a re-analysis of the deposited data

How the results depend on the processing

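Under scaling to the 75th percentile of detected probes, to the median, by loess, by quantiles and by spike-ins, in that order, the median was -0.74, -0.96, -0.74, -0.76 and -1.25 over all transport genes, -0.95, -1.17, -0.94, -0.97 and -1.45 over nucleoporins, and -1.27, -1.5, -1.28, -1.30 and -1.78 over exportins. The importin median was -0.14, -0.36, 0.0088 (opposite in sign to the main value), -0.021 and -0.65. The exportin median was -1.13 with probes averaged per gene, -0.99 with normexp, -1.24 over the 6 genes with a signal of at least 100 and -1.11 without the strip. At a 3-fold threshold 2 of 46 genes were lower, close to the share of all genes (3.31%), and at 1.5-fold 29, against 22.0%. The median of all genes shifted by 0.11, -0.11 and -0.40 under the detected-probe, median and spike-in scalings, and higher genes made up 48.4% of all called genes under the main setting, 58.4% under the detected-probe scaling, 41.7% at a signal of at least 100 and 19.0% with spike-in scaling.

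The count at least 2-fold lower ran from 17 with loess, where 8.16% of all genes were called lower, to 29 with spike-in scaling, where 21.4% were. Calls were lost for IPO11 and XPO4 (normexp), IPO5 (loess), NUP35 (loess, quantiles), NUP43 (mean of probes), XPO6 (without the strip), XPOT (detected-probe scaling, normexp) and NUP50 (detected-probe scaling, loess, quantiles, mean of probes). A total of 34 genes were below 0 in every setting and 2 above, and 10 genes within 2-fold changed sign in some setting. The cause was not tested. No paired analysis was possible because each group had 1 array. A block for the slide was not run, since both arrays lay on 1 slide. Neither culture was repeated, so differences close to the gap between probes of a gene cannot be ranked.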
